A study of Homo sapiens with 12 samples.

Results

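This comparison concerns the total RNA of HEK293T cells in which the RNA-binding protein PRRC2B was knocked down. Of the 12 libraries in the series, 6 were total RNA and were compared here, 3 from the shPRRC2B line and 3 from the shCtrl line, and the other 6 hold polysome-associated RNA of the same lines. HEK293T is a human embryonic kidney line that carries SV40 large T antigen. Both lines carry a doxycycline-inducible, lentiviral shRNA cassette that also encodes TurboRFP, both were selected with puromycin, and both were given doxycycline before harvest. In shPRRC2B the shRNA targets PRRC2B, and in shCtrl it is non-silencing. Per the study's methods each line was a stable single clone, so the shRNA and the clone that carries it cannot be told apart in any value below. The question was which mRNAs differ in abundance between the lines, apart from how they are loaded on ribosomes.

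PRRC2B belongs to a family of 3 large proteins with PRRC2A and PRRC2C, which bind RNA and associate with initiation factors of translation. An mRNA's level in total RNA is set by its transcription and its decay, while its level in polysome RNA also depends on translation. Several groups of genes are read as sensors of the state of a cell in such data. They include ribosomal protein mRNAs, the targets of the stress factor ATF4, of the hypoxia-inducible factors, of heat shock factor 1 and of p53, and the genes induced by interferon.

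The 6 libraries held 9855734 to 20837542 read pairs assigned to genes. Within a line, the log2 CPM (counts scaled to the size of each library, with the TMM correction for composition) of 2 libraries correlated with r from 0.986 to 0.990 over genes, and between the lines from 0.931 to 0.938. The first principal component held 77.6% of the variance and separated the lines. The targeted gene was read first. PRRC2B, on chromosome 9 (chr9:131373636-131500197, plus strand, GRCh38), measured 385, 439 and 375 CPM in the shCtrl libraries and 135, 140 and 140 CPM in the shPRRC2B libraries. The groups did not overlap. Its log2 change was -1.53 (SE 0.07, n = 3 libraries per line; edgeR quasi-likelihood test with Benjamini-Hochberg adjustment, adjusted p = 1.1e-11), which is the direction the labels give. PRRC2A stood at 59.7 CPM ± 3.6 (SD, n = 3) in shCtrl and 59.8 CPM ± 6.5 in shPRRC2B, and PRRC2C at 512 CPM ± 26 and 451 CPM ± 29. Their log2 changes were 0.00 (SE 0.08) and -0.18 (SE 0.06), and neither passed the thresholds given next. The labels call the 3 libraries of a line biological replicates without saying whether they came from separate cultures, so p-values measure the spread between these libraries.

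Of 17520 genes with enough counts to test, 2865 (16.4%) were higher and 3598 (20.5%) were lower in shPRRC2B. Here and throughout, a gene rose or fell if its adjusted p was below 0.05 and its log2 change exceeded 0.5 in size. These shares are the background for every gene list that follows. The middle of all changes lay between -0.48 and 0.37 (lower and upper quartile). Among the higher genes 1027 changed by more than 1 on the log2 scale and 179 by more than 3, and among the lower genes 1772 and 100. The 3 values of one line lay wholly above those of the other for 5653 genes (32.3%) with shPRRC2B above and for 5586 genes (31.9%) with shPRRC2B below, so that groups without overlap are common here.

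**Figure D1:**
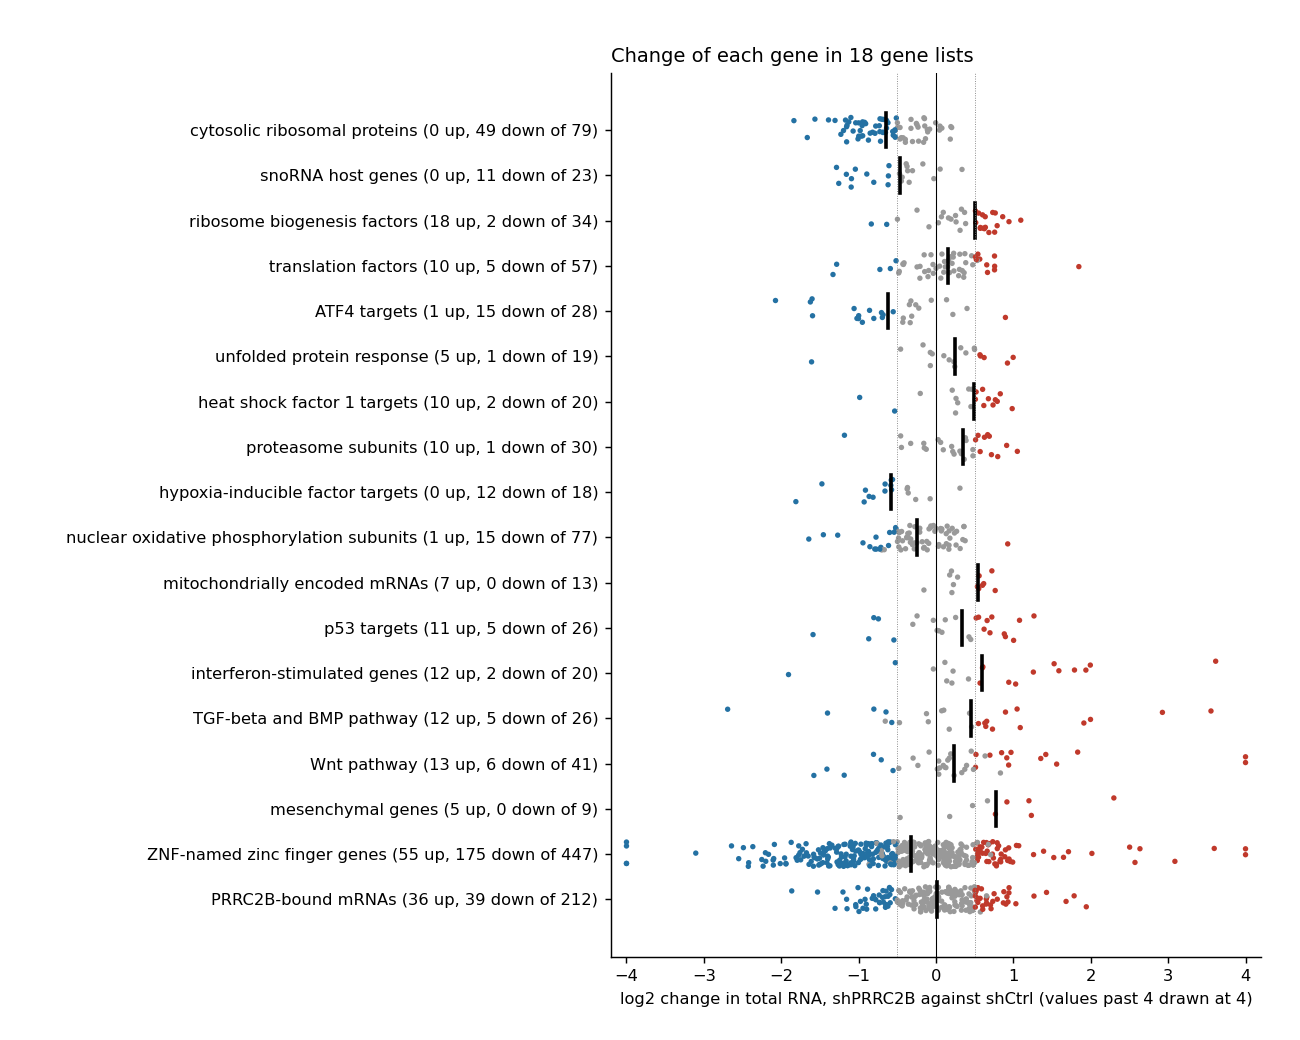
Each point is a gene of 1 of 18 lists, placed by its log2 change in total RNA (shPRRC2B against shCtrl, 3 libraries each), red where it rose, blue where it fell and grey where it did not pass the thresholds. The black bars are medians, which lie at -0.64 for the cytosolic ribosomal proteins, -0.62 for the ATF4 targets, 0.51 for the ribosome biogenesis factors and 0.01 for the PRRC2B-bound mRNAs.

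The changes were not spread evenly over the chromosomes. Chromosome 3 had 441 lower genes of 879 tested (50.2%) and 51 higher (5.8%), with a median log2 change of -0.54. Chromosome 10 had 254 higher genes of 631 (40.3%) and 50 lower (7.92%), with a median of 0.39. On chromosome 19, 365 of 1055 genes (34.6%) were lower. Over windows of 10 Mb, 7 runs of at least 2 adjacent windows had medians of the protein-coding genes beyond 0.5 in size, with at least 10 such genes asked for in each window. Higher runs lay on chromosome 1 from 0 to 30 Mb (median 0.74, 185 of 285 genes higher), chromosome 4 from 20 to 50 Mb (0.79, 41 of 58) and chromosome 10 from 10 to 40 Mb (0.59, 57 of 91). Lower runs lay on chromosome 1 from 60 to 80 Mb (-0.60, 32 of 55 genes lower), chromosome 3 from 0 to 80 Mb (-0.69, 234 of 365) and from 90 to 120 Mb (-0.64, 47 of 74), and chromosome 19 from 40 to 60 Mb (-0.76, 246 of 396). Chromosome 3 from 80 to 90 Mb, between its runs, holds 8 genes, too few for the rule, with a median of -0.78 and 7 lower. DNA was not measured in this series, so the part of chromosome copy number in these runs was not tested. Outside the runs, 17.8% of 12063 protein-coding genes were higher and 14.5% lower.

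**Figure D2:**
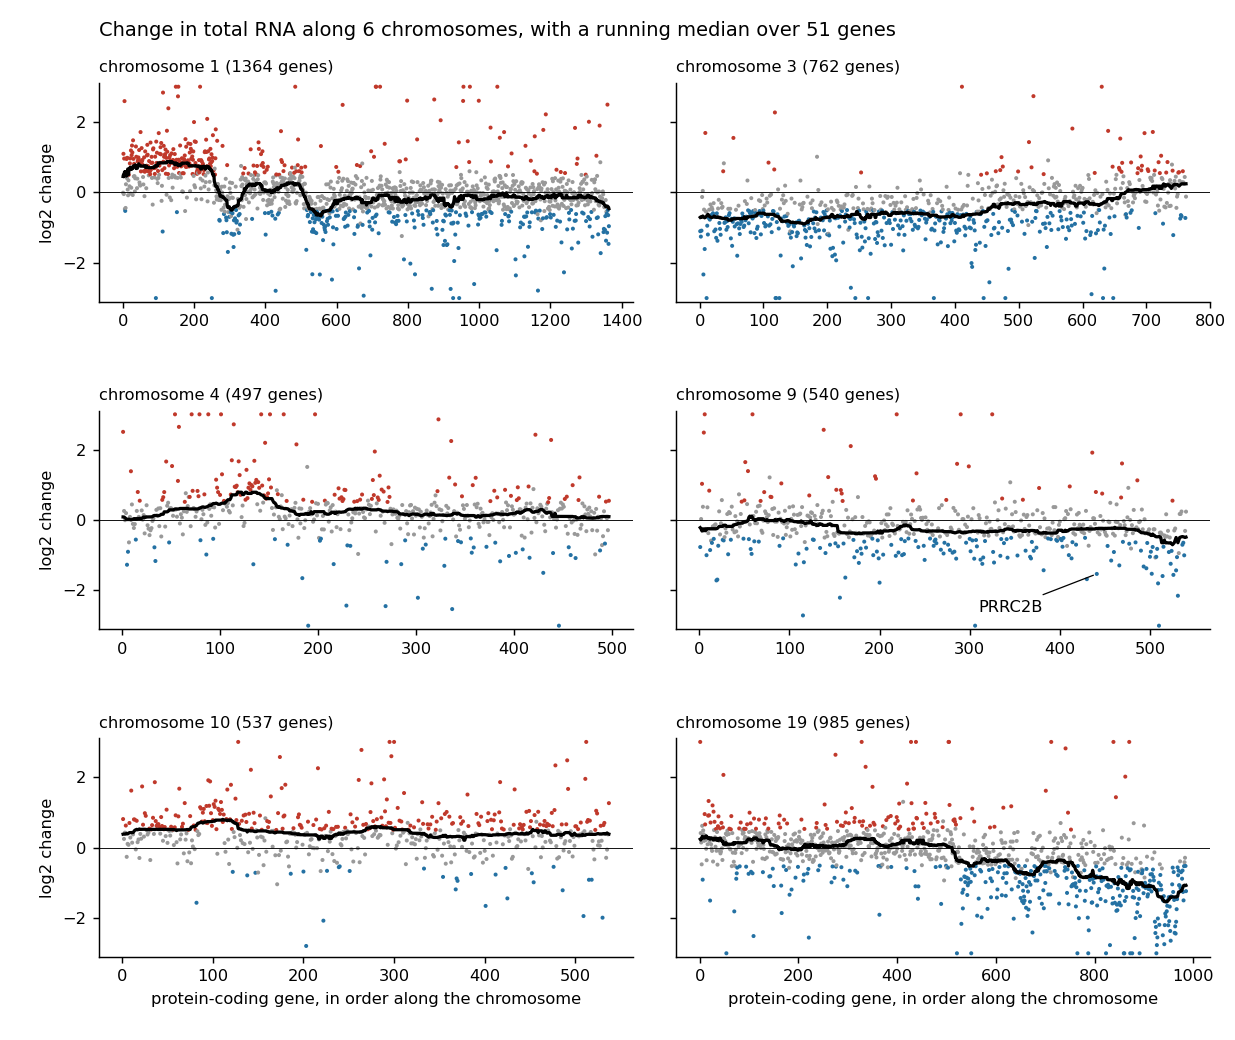
Log2 change in total RNA (vertical axis, values past 3 drawn at 3) of protein-coding genes in their order along 6 chromosomes (horizontal axis, gene rank), coloured as higher (red), lower (blue) or not called (grey), with a running median over 51 genes in black. Most of chromosome 3 and the end of chromosome 19 lie below 0, the start of chromosome 1 and the running median of chromosome 10 lie above 0, and PRRC2B lies well below its neighbours on chromosome 9.

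Because whole stretches moved together, each gene was also compared with its surroundings, as its log2 change minus the median change of the 25 protein-coding genes on either side. PRRC2B's neighbours had a median of -0.24, and it lay 1.29 below them in log2 change (a relative change of -1.29). Of the 15293 genes with a position, 1575 of the 2642 higher and 2092 of the 2951 lower genes also differed from their neighbours by more than 0.5 in the same direction. Counts made in this way are called relative to neighbours below. They were chosen after the pattern had been seen, and they are given where they move a list's count of 8 or more by over 1.5 times, and for the leading lists and some smaller counts.

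Cytosolic ribosomal protein mRNAs were lower in shPRRC2B. Of 79 tested, 49 (62.0%) fell and none rose, with a median log2 change of -0.64, and 42 fell relative to neighbours with a median of -0.64 as well. RPL39, a small protein of the large subunit, measured 335, 363 and 360 CPM in shCtrl and 117, 110 and 107 CPM in shPRRC2B. RPL24, of the large subunit, measured 804, 831 and 770 CPM against 315, 303 and 300 CPM, and RPL37A 819, 901 and 766 CPM against 429, 386 and 430 CPM. The lines were apart for all 3 genes. Their log2 changes were -1.66 (SE 0.06; edgeR adjusted p = 1.7e-12), -1.39 (SE 0.06; adjusted p = 5.5e-12) and -1.0 (SE 0.07; adjusted p = 2.2e-09). RPL32 (-1.30), RPL29 (-1.23), RPS27 (-1.20) and RPSA (-1.17) also fell. RPS9 had the lowest log2 change, -1.84, at only 9.01 CPM ± 6.0 in shCtrl, and -1.21 without shCtrl replicate 3. With the trend of changes on transcript length removed, 36 members fell, and 35 with the replicate number as a block as well. At the other end RPL4 stood at -0.00, RPS26 at 0.19 and RPL11 at 0.20, none of them called. The large subunit had 33 of 47 members lower (median -0.70) and the small subunit 16 of 32 (-0.51). The 13 members that lie in the lower runs of chromosomes 3 and 19 all fell (median -1.16), and 36 of the other 66 fell (median -0.53). Ribosomal protein genes have many processed pseudogenes, and read pairs that map to several places were not counted, so their levels are those of the pairs that map to 1 place.

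Ribosomal protein mRNAs are known for a first base C followed by a run of pyrimidines, the terminal oligopyrimidine tract, through which their use is tied to growth signals. The starts annotated by RefSeq (GRCh38.p14) were searched on the gene's strand for a C at the first transcribed base followed by at least 4 C or T. Of the 64 ribosomal protein genes with an entry, 42 (65.6%) had such a start, against 603 of 11693 tested genes with an entry (5.16%) and 1104 of 27305 entries in all (4.04%). Ribosomal protein genes with the tract had a median log2 change of -0.84 with 33 lower, and the 22 with another annotated start a median of -0.19 with 8 lower. Their median transcript lengths were 733 and 969 bases, and the part of length in this split was not tested. A tract that begins a few bases from the annotated start was not found by this search, so the 22 may include genes that have one. Of the 561 other genes found with the tract, 84 were higher and 110 lower. Among translation factors 11 of 46 have it, 2 of them lower, and their median was -0.06. The stretches below show 10 bases before and 15 bases from the annotated start for the ribosomal protein genes with the tract and the largest falls, and for the 2 translation factors with the tract and the highest CPM that were not called, with the tract in capitals.
RPS9 (chr19:54200848-54200872, plus strand): gcttccgcgcCTCTTTCTCagtgac
RPL39 (chrX:119791616-119791640, minus strand): ccgccagcttCCCTCCTCTTCCTTT
RPL24 (chr3:101686704-101686728, minus strand): atgattctctCTTTCTTTTCgccat
RPL29 (chr3:51995881-51995905, minus strand): cagcccctttCTCTTCCggttctag
EEF1A1 (chr6:73521018-73521042, minus strand): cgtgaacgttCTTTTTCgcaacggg
EEF2 (chr19:3985449-3985473, minus strand): cgtcagcgttCTCTTCCgccgtcgt
EEF1A1, the factor that brings aminoacyl-tRNA to the ribosome, had a log2 change of -0.04 (SE 0.05) and EEF2, the translocation factor, of 0.30 (SE 0.07).

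**Figure D3:**
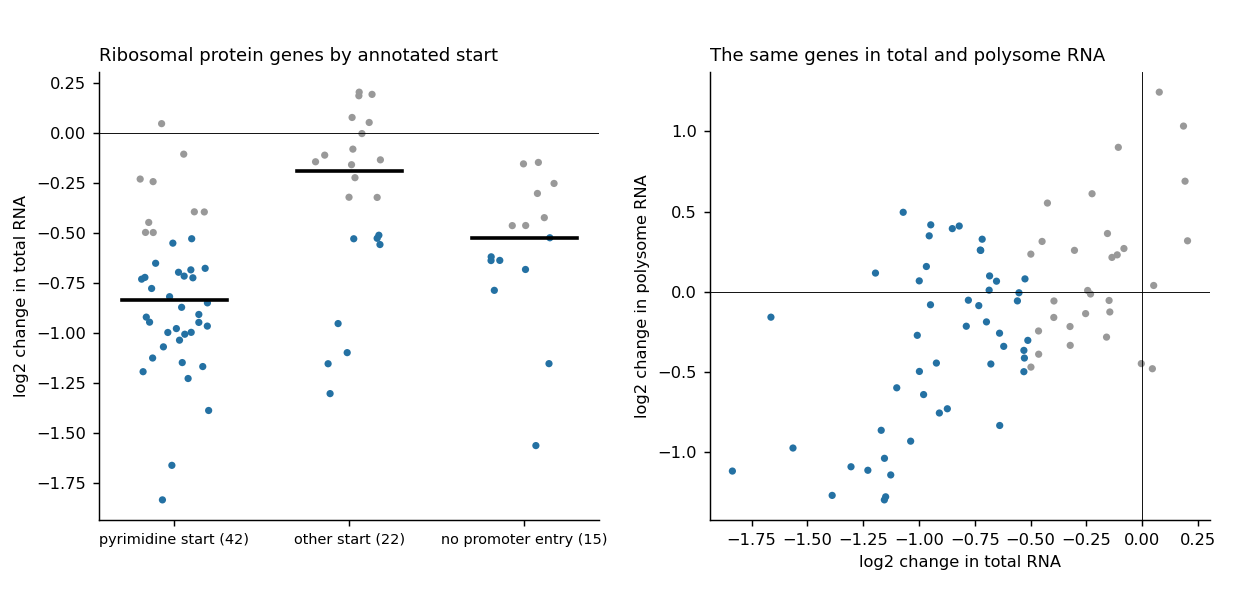
Left, log2 change in total RNA of the 79 ribosomal protein genes, split by the kind of start RefSeq annotates, with medians as bars (-0.84 for 42 genes with the pyrimidine tract, -0.19 for 22 with another start, -0.53 for 15 with no entry). Right, the same genes with their log2 change in total RNA on the horizontal axis and in polysome RNA on the vertical axis; blue points fell in total RNA.

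The host genes of small nucleolar RNAs, of which 6 of 20 with an entry start with the tract, were lower too. Of 23 tested, 11 (47.8%) fell and none rose (median -0.47), and 10 fell relative to neighbours. GAS5 measured 226, 224 and 221 CPM in shCtrl and 96.6, 100.3 and 117 CPM in shPRRC2B, a log2 change of -1.10 (SE 0.07; edgeR adjusted p = 1.0e-09). SNHG19 (-1.29), SNHG10 (-1.26) and SNHG7 (-1.09) fell too. Spliced forms of these transcripts are degraded through nonsense-mediated decay, which depends on translation. Factors that build ribosomes were mostly higher. Of 34 tested, 18 (52.9%) rose and 2 fell, with a median of 0.51. NOC2L, a factor of large-subunit assembly, measured 149, 153 and 141 CPM in shCtrl and 332, 308 and 307 CPM in shPRRC2B (log2 change 1.10, SE 0.06). UTP20 (0.94), the helicase DDX21 (0.86), UBTF (0.61), which binds ribosomal RNA genes, and POLR1A (0.76), the large subunit of RNA polymerase I, rose. GNL3 (-0.84) and FBL (-0.64), the snoRNA-guided methyltransferase, fell. Fewer biogenesis factors, 7, rose relative to neighbours, and 0 fell. NOC2L lies in the higher run at the start of chromosome 1. GNL3 lies in the lower run of chromosome 3 and stood at -0.20 relative to neighbours.

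Of 57 translation factors 10 (17.5%) rose and 5 (8.77%) fell, beside 16.4% and 20.5% of all genes. The higher share was close to the background and the lower share was below it. Their median was 0.16, and 3 rose relative to neighbours. The scaffold EIF4G1 rose (log2 change 0.76, SE 0.05; edgeR adjusted p = 4.7e-09), as did EIF4G3 (0.76), EIF4G2 (0.67) and the subunit-joining factor EIF5B (0.76). EIF4E3 (-1.33) and EIF1B (-1.28), both on chromosome 3, and EIF4EBP1 (-0.73), a repressor of cap-dependent initiation, fell. The largest rise in the list, EEF1D, came from 1 library. It measured 5.42, 3.96 and 30.1 CPM in shPRRC2B and 1.76, 4.35 and 5.22 CPM in shCtrl, and its log2 change went from 1.85 to 0.36 without shPRRC2B replicate 3. Of 21 cytosolic aminoacyl-tRNA synthetases and their partners, 5 rose, among them RARS1 (0.91) and KARS1 (0.82), and 4 fell, among them YARS1 (-0.86). Relative to neighbours 3 rose and 1 fell. CARS1 fell by 1.18 on the log2 scale and by 0.38, no longer called, without shCtrl replicate 1.

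Targets of ATF4, the transcription factor of the integrated stress response, were mostly lower. Of 28 tested, 15 (53.6%) fell and 1 rose, with a median log2 change of -0.62, and 11 fell relative to neighbours. ATF4 itself measured 732, 762 and 708 CPM in shCtrl and 438, 454 and 480 CPM in shPRRC2B (log2 change -0.68, SE 0.06; edgeR adjusted p = 2.6e-08). DDIT4, an inhibitor of the growth kinase mTORC1, measured 335, 413 and 295 CPM against 89.7, 85.1 and 73.3 CPM (-2.07, SE 0.10), and the secreted factor STC2 305, 340 and 294 CPM against 99.7, 104 and 101 CPM (-1.62, SE 0.06). The lines were apart for each of them. NUPR1, a stress-induced nuclear protein, fell by 1.60. ASNS, which makes asparagine, measured 16, 17.8 and 14.5 CPM against 5.74, 4.64 and 5.78 CPM (-1.60, SE 0.15; edgeR adjusted p = 7.7e-08). The serine pathway genes PSAT1 (-1.06), PHGDH (-0.86) and PSPH (-0.69) fell, and CTH (-1.0), of cysteine synthesis, fell. So did PPP1R15A (-0.95), which brings the phosphatase to eIF2, and DDIT3 (-0.55, and -0.44 and not called without shPRRC2B replicate 1), the death-linked factor of this response. TRIB3 (-0.31), ATF3 (-0.26) and CHAC1 (0.14) did not pass the thresholds, and the 1 member that rose was GDF15 (0.90).

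The composite element that ATF4 binds was searched as TGATGNAA on both strands of the RefSeq promoters, from 250 bases before to 50 after the start. It was found in 5 of 23 promoters of the list (21.7%) and in 195 of 11693 promoters of tested genes (1.67%). The members with it had a median log2 change of -0.26 and those without it of -0.62. The stretches of the 2 called members that hold it are shown with 8 bases on either side and the motif in capitals. In ASNS it spans -68 to -61 from the start, and in SLC7A1 (log2 change -0.70), an arginine transporter, 8 to 15.
ASNS (chr7:97872461-97872484, minus strand): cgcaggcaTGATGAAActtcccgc
SLC7A1 (chr13:29595666-29595689, minus strand): cgcactgcTGATGAAAcctggcgc

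Genes of the unfolded protein response of the endoplasmic reticulum, mostly its chaperones, had 5 higher members of 19 and 1 lower (median 0.24), and 2 were lower without shCtrl replicate 3. CALR, a lectin chaperone, rose from 357 CPM ± 6.7 to 713 CPM ± 36 (SD, n = 3; log2 change 1.00, SE 0.06), SDF2L1 by 0.92 and HSPA5, the main chaperone of this compartment, by 0.58. EDEM1, on chromosome 3, fell by 1.61 (SE 0.07; edgeR adjusted p = 7.6e-12).

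Targets of the hypoxia-inducible factors fell. Of 18 tested, 12 (66.7%) were lower and none higher (median -0.58), and all 12 were lower relative to neighbours. VEGFA, the growth factor of blood vessels, measured 156, 140 and 136 CPM in shCtrl and 47.7, 52.6 and 55.2 CPM in shPRRC2B, a log2 change of -1.47 (SE 0.07; edgeR adjusted p = 5.8e-11). PDK1, which limits entry of pyruvate into mitochondria, fell by 0.93, the mitophagy receptor BNIP3 by 0.91, the oxygen sensor EGLN1 by 0.81 and the glucose transporter SLC2A1 by 0.66. PFKFB4, a regulator of glycolysis on chromosome 3, fell by 1.81. Glycolysis as a list gave 7 lower and 2 higher genes of 22 (median -0.13), and 1 was higher without shPRRC2B replicate 2. Relative to neighbours 6 were lower and none higher. Its falls were in SLC2A3 (-1.87) and in isozymes such as ENO2, which went from 121 CPM ± 7.2 to 35.7 CPM ± 2.2 (-1.77, SE 0.07), whereas GAPDH (-0.09, SE 0.06), PKM (-0.04) and ENO1 (0.41) did not pass.

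**Figure D4:**
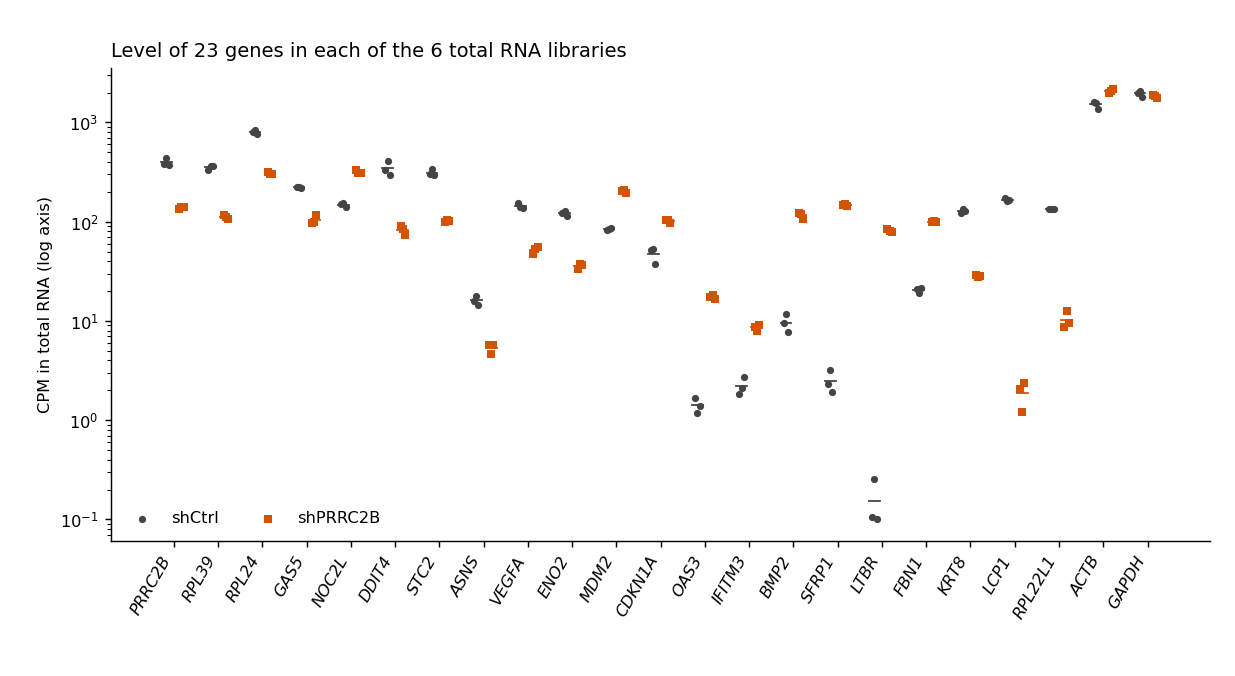
Level in CPM (log axis) of 23 genes in each total RNA library, circles for shCtrl and squares for shPRRC2B, with the mean of each line as a bar. The lines are apart for every gene drawn but GAPDH, and CPM should be compared within a gene only, since it is not corrected for length.

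The respiratory chain is encoded by both genomes of the cell. Of 13 mRNAs encoded by mitochondrial DNA, 7 rose and none fell (median 0.54), MT-ATP8 by 0.77 (SE 0.18), MT-ND1 by 0.72 (SE 0.07) and MT-CO3 by 0.62 (SE 0.07), while MT-CO1 stood at 0.20. The share of all counts on mitochondrial genes was 4.21% to 5.14% in shCtrl and 5.69% to 6.07% in shPRRC2B. Of 77 nuclear subunits of oxidative phosphorylation, 15 fell and 1 rose (median -0.25). The largest falls were those of COX6A1 (-1.64), NDUFA1 (-1.46) and ATP5ME (-1.27), and 8 members fell with the trend on transcript length removed. SDHB (0.93), in the higher run of chromosome 1, rose. Of 74 mitochondrial ribosomal proteins 14 rose and 10 fell (median 0.12), 6 and 2 did so relative to neighbours, and 5 fell with the length trend removed. MRPL20, in the same run of chromosome 1, rose by 1.19 and MRPS25, in the lower run of chromosome 3, fell by 1.18.

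Genes of protein folding and turnover rose in part. Of 20 heat shock factor 1 targets and cytosolic chaperones, 10 rose and 2 fell (median 0.49), 6 rose relative to neighbours, and 1 fell without shCtrl replicate 3. BAG3, a co-chaperone, rose from 44 CPM ± 2.6 to 87.4 CPM ± 2.7 (log2 change 0.98, SE 0.07; edgeR adjusted p = 4.0e-09), STIP1 by 0.83, DNAJA1 by 0.79, HSPA4 by 0.77 and HSP90AA1 by 0.60, while HSPE1, the mitochondrial co-chaperonin, fell by 0.99. Of 30 proteasome subunits 10 rose and 1 fell (median 0.35), and 6 rose relative to neighbours, with PSMD7 at 1.05, PSMA6 at 0.91, PSMD12 at 0.80 and, as the 1 fall, PSMA2 at -1.18. Without shPRRC2B replicate 3 the proteasome had 2 falls and the CCT chaperonin 2 rises. The CCT chaperonin had 1 higher subunit of 8 (CCT2, 0.54). Of 17 NRF2 targets 5 rose and 1 fell, and 2 or 3 fell with any single library but shPRRC2B replicate 3 left out. The rises included AKR1C1 by 1.62 and OSGIN1 by 1.26, both at low levels (means of 0.40 and 1.36 CPM in shCtrl, 1.34 and 3.08 CPM in shPRRC2B). PGD, in the higher run of chromosome 1, rose by 1.13 and stood at 0.40 relative to neighbours. HMOX1, the heme-degrading enzyme, rose by 1.02. The heat shock element was searched as GAA, 2 bases of any kind, TTC, 2 bases of any kind and GAA, on both strands, and found in 4 of 19 promoters of the chaperone list (21.1%) and in 36 of 11693 (0.308%) promoters of tested genes. Of those 36 tested genes 9 were higher and 3 lower, and 6 list members without the element rose. All 4 list members that hold it rose. The stretches of the 2 with the largest rises are shown with the motif in capitals, at 4 to 16 from the start in DNAJA1 and at -60 to -48 in CHORDC1 (log2 change 0.68).
DNAJA1 (chr9:33025268-33025296, plus strand): gccgggcgGAACTTTCCAGAAcgctcggt
CHORDC1 (chr11:90223089-90223117, minus strand): cgcgaccgGAAAATTCGCGAAggttcctg

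Targets of p53, a factor that large T antigen binds, were called in both directions. Of 26 tested, 11 (42.3%) rose and 5 (19.2%) fell (median 0.34), and 7 rose relative to neighbours. MDM2, the ubiquitin ligase of p53, measured 82.6, 85.0 and 86.0 CPM in shCtrl and 205, 208 and 196 CPM in shPRRC2B (log2 change 1.27, SE 0.06; edgeR adjusted p = 2.6e-11). CDKN1A, the inhibitor of cyclin-dependent kinases, measured 51.7, 53.3 and 37.4 CPM against 104, 104 and 96.6 CPM (1.08, SE 0.10). The lines did not overlap for either. TIGAR (1.00) and RRM2B (0.88) rose. BBC3, the death effector PUMA, fell by 1.59 and lies in the lower run of chromosome 19, and GADD45A fell by 0.87.

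Interferon-stimulated genes were higher, from low counts. Of 39 names 20 had enough counts, and 12 of these (60%) rose and 2 fell, with a median of 0.60, and 4 fell without shPRRC2B replicate 3. Relative to neighbours 9 rose. OAS3, a sensor of double-stranded RNA, measured 1.66, 1.18 and 1.40 CPM in shCtrl and 17.2, 18 and 16.8 CPM in shPRRC2B (log2 change 3.61, SE 0.17; edgeR adjusted p = 3.6e-11). IFITM3, which blocks entry of viruses, measured 1.82, 2.1 and 2.71 CPM against 8.71, 7.92 and 9.13 CPM (1.99, SE 0.19). IFI6 (1.79) and IFIT1 (1.03) rose as well. STAT2, which carries the signal of the receptor, stood at -0.03 (SE 0.09). BST2 (-1.91) and ISG15 (-0.53) fell. The core of the interferon response element was searched as GAAA, 2 bases of any kind and GAAA, on both strands. It was found in 13 of 17 promoters of the list (76.5%) and in 298 of 11693 promoters of tested genes (2.55%). List members with it had 10 higher and 2 lower genes, and all tested genes with it 50 higher and 51 lower. The stretches of the 4 called members with the largest changes that hold it follow, with the motif in capitals. In IFIT3 the match is on the opposite strand.
OAS3 (chr12:112938323-112938348, plus strand): aaagaaacGAAACTGAAAgcagggaa
IFITM3 (chr11:320895-320920, minus strand): aatgccagGAAAAGGAAActgttgag
IFIT3 (chr10:89327867-89327892, plus strand): taaattagTTTCACTTTCcagtttcc
BST2 (chr19:17405743-17405768, minus strand): ctttctggGAAACTGAAActgaaaac

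Genes of the cell cycle were called no more often than the background. Among 30 G1 cyclins, kinases and inhibitors 4 rose and 5 fell, among 49 genes of DNA replication 6 rose and 5 fell, and among 43 of mitosis 5 rose and 2 fell. The count of 4 higher G1 genes became 2 without shCtrl replicate 1 and 7 without shPRRC2B replicate 3. Relative to neighbours 2 G1 genes rose and 4 fell, 2 replication genes rose and 2 fell, and no mitosis gene rose and 1 fell. CCND2, a cyclin of G1, measured 51.5, 53.6 and 47.5 CPM in shCtrl and 56.6, 57.3 and 57.6 CPM in shPRRC2B, a log2 change of 0.16 (SE 0.07) that did not pass. CCND1 stood at 0.49 (SE 0.08), just under the size threshold, and passed it without shCtrl replicate 2, shPRRC2B replicate 2 or shPRRC2B replicate 3. CDKN2A, an inhibitor of CDK4 and CDK6, fell from 244 CPM ± 30 to 138 CPM ± 3.7 (-0.82, SE 0.07) and CDKN2B by 0.96. MKI67, the proliferation antigen, rose by 0.73, and POLD1, of DNA polymerase delta on chromosome 19, fell by 1.08. Other genes the study works with were near 0, CRKL at -0.06 (SE 0.06), PTBP1 at 0.09 and CTC1 at -0.13. YWHAZ (0.33), ATAD5 (-0.34), BPTF (0.47), PPP2R1A (-0.46), GATA4 (0.48) and ACTB (0.45) had adjusted p-values under the threshold but changes smaller than 0.5, though BPTF passed without shCtrl replicate 3 (0.52) and GATA4 without shCtrl replicate 2 (0.53). SERBP1 fell by 0.60 (SE 0.06) and stood at 0.06 relative to neighbours, and PPP2R1A, whose neighbours had a median of -1.03, stood at 0.57. Replication-dependent histones gave 8 lower and 2 higher of 18, with H2BC21 at -2.02, and 1 was higher without replicate 2 of either line. With the length trend removed 4 were lower, and in the fit of all 12 libraries 1 was. Their mRNAs carry no poly(A) tail, and the libraries were made from poly(A) RNA.

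Among signalling genes, the TGF-beta and BMP pathway had 12 higher and 5 lower of 26 (median 0.45). BMP2, a BMP ligand, went from 9.64 CPM ± 2.0 in shCtrl to 116 CPM ± 9.5 in shPRRC2B (SD, n = 3; log2 change 3.55, SE 0.11; edgeR adjusted p = 1.7e-13). BMP5 rose by 2.93, or 3.57 without shCtrl replicate 3, from a mean of 0.15 CPM in shCtrl to 1.01 CPM in shPRRC2B. INHBA, the subunit of activin A, fell by 2.69, from 1.72 to 0.26 CPM. Among direct targets and feedback genes of BMP signals ID3 rose from 25.9 CPM ± 4.1 to 105 CPM ± 1.9 (log2 change 2.00, SE 0.09), BAMBI by 1.91, SMAD6 by 1.09 and ID1 by 1.05, while ID2 (-0.80) and the BMP antagonist NOG (-1.40) fell. In the Wnt pathway 13 of 41 rose and 6 fell (median 0.23). SFRP1, a secreted antagonist of Wnt, measured 2.30, 3.23 and 1.91 CPM against 146, 151 and 143 CPM (5.83, SE 0.11; adjusted p = 3.1e-16), the receptors FZD10 (6.57), FZD8 (0.94) and FZD7 (0.85) rose, WNT3A rose by 1.83 and WNT7B fell by 1.58. The target AXIN2 stood at 0.02 and LGR5 fell by 0.71. Of 15 feedback genes of the ERK pathway 8 rose and 2 fell, and in the fits of all 12 libraries and of genes with at least 10 counts in each library 4 rose. The phosphatases DUSP6 (2.01, from a mean of 0.26 CPM in shCtrl to 0.94 CPM in shPRRC2B) and DUSP5 (1.65) rose. ETV4, at few counts, fell by 2.39 and by 4.05 without shPRRC2B replicate 3, and ETV5 had a log2 change of 1.72, which was 1.15 and not called without shCtrl replicate 1, 1.48 and not called without shPRRC2B replicate 3, and 2.68 without shCtrl replicate 2. Of 18 YAP and TEAD targets 5 rose and 2 fell, and relative to neighbours 3 rose and 1 fell. At low levels, ANKRD1 rose by 2.59 (means of 0.36 CPM in shCtrl and 2.28 CPM in shPRRC2B) and CCN2 by 1.61 (1.16 and 3.52 CPM). The Notch pathway had 3 higher and 3 lower of 20 (6 lower without shCtrl replicate 3), with NRARP at -1.43 and JAG1 at 0.96, and ephrins and Eph receptors 6 and 6 of 20 (3 and 4 relative to neighbours), with EPHA3 and EPHA6 of chromosome 3 at -1.48 and -1.42. Immediate early genes had 4 higher and 5 lower of 24, with EGR2 at 1.69 (means of 0.34 and 1.20 CPM in shCtrl and shPRRC2B) and FOS at -1.02.

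Genes of cell identity and of the cell surface are set beside the shares over all genes, 16.4% higher and 20.5% lower. Some lists lay above these shares, such as mesenchymal genes (55.6% higher) and potassium channels (40.4% higher). Others lay near or below them. HOX genes had 8.11% higher and 21.6% lower, integrins 10.5% and 15.8%, and imprinted genes 16.7% and 16.7%. Of 9 mesenchymal genes 5 rose and none fell (median 0.77), and relative to neighbours 3 rose (median 0.42). SNAI2, a repressor of epithelial genes, rose from 6.50 CPM ± 0.16 to 32.1 CPM ± 2.4 (log2 change 2.30, SE 0.11), ZEB1 by 1.23 and VIM by 0.92. ZEB1 and VIM lie in the higher run of chromosome 10 and stood at 0.49 and 0.42 relative to neighbours. Of 8 epithelial genes 3 fell, among them CLDN7 (-1.55) and EPCAM (-1.20), both at low levels. CLDN7 averaged 1.70 CPM in shCtrl and 0.60 CPM in shPRRC2B, and the lines overlapped. EPCAM averaged 2.95 and 1.28 CPM. KRT8, a keratin, measured 121, 135 and 129 CPM in shCtrl and 29.1, 28 and 28.4 CPM in shPRRC2B (-2.17, SE 0.07; edgeR adjusted p = 2.8e-13), while its partner KRT18 stood at 0.37 and CDH1 at -0.23. Of 14 neuronal genes 6 fell, among them SYP (-2.08), NEFM (-1.61) and NEFL (-1.05), and 3 rose, NCAM1 (0.65), NEFH (1.24) and SNAP25 (2.91). SNAP25 averaged only 0.26 CPM in shCtrl and 2.06 CPM in shPRRC2B. Of 13 kidney development genes 5 rose and none fell, GDNF by 2.33, its receptor RET by 1.78, WT1 by 1.31 and GATA3 by 0.90. PAX2 (0.21) was measured in both lines and not called. Of 16 markers of leukocytes, endothelium, fibroblasts and hepatocytes 12 had too few counts to test, 14 at most in a library, and of the other 4 COL1A1 rose by 0.84, with 2 higher without shCtrl replicate 1 or shPRRC2B replicate 2, and LUM fell by 3.49 from 1.33 CPM ± 0.32. In bulk RNA, fewer cells of a kind and less RNA per cell cannot be told apart. Genes of the extracellular matrix gave 17 higher and 9 lower of 54. FBN1, of microfibrils, measured 21.1, 19.1 and 21.5 CPM in shCtrl and 100.2, 102 and 98.3 CPM in shPRRC2B (2.29, SE 0.07). LAMA2 rose by 2.80, COL23A1 by 2.46, SPARC by 1.43 and the laminin LAMB1 by 0.95, and the basement membrane collagens COL4A1 (-0.89) and COL4A2 (-0.67) fell. Of 52 potassium channels 21 rose and 7 fell, with KCNA6 at 5.79. With at least 10 counts asked for in each library 8 rose. All 4 clustered protocadherins with enough counts, of 54 names, rose, PCDHGC3 by 2.23. A gene could be tested through its counts in 1 line alone. PCDHAC2 had 0 counts in every shCtrl library and PCDHGC4 averaged 0.66 CPM there, so their rises follow in part from that filter. Among 12 classical and type II cadherins 5 rose and 2 fell, with CDH3 at -2.36, and 1 fell without replicate 1 of either line or shCtrl replicate 2. Integrins had 2 higher and 3 lower of 19. Without shCtrl replicate 2 there was 1 of each, and 1 was higher without replicate 1 of either line. ITGB1, in the higher run of chromosome 10, rose by 1.10 and stood at 0.34 relative to neighbours. Of 37 HOX genes 3 rose, none without shCtrl replicate 3 and 1 without shPRRC2B replicate 2, and 8 fell, HOXA4 by 1.33. Relative to neighbours, which include other HOX genes, 5 fell. Of the remaining lists, lysosomal genes had 7 higher and 3 lower of 25, cholesterol synthesis 2 and 2 of 24, fatty acid synthesis 2 and 0 of 14, and imprinted genes 2 and 2 of 12. The lower cholesterol genes were 4 without shCtrl replicate 2, shCtrl replicate 3 or shPRRC2B replicate 1, and the imprinted counts were 4 and 4 without shPRRC2B replicate 3.

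Some genes were on in 1 line and almost silent in the other. With a mean of at least 5 CPM in the other line, 12 genes had at most 3 counts summed over the 3 shCtrl libraries and 2 had at most 3 counts over the 3 shPRRC2B libraries. MAGEL2, an imprinted gene of chromosome 15, had 0 counts in every shCtrl library and 21.1, 20.0 and 19.5 CPM in shPRRC2B, at least 324-fold higher against a floor of 3 counts over the group. LINC02864 likewise had 0 counts and 15.8, 16.4 and 16.8 CPM, at least 263-fold higher. TCIM had 1 count against 1002, a ratio of 923 (95% exact interval 165 to 36500, for counting error only), and the pseudogene CECR7 1 against 1259, a ratio of 1160 (208 to 45800). LTBR, the lymphotoxin receptor, measured 0.107, 0.256 and 0.100 CPM in shCtrl and 84.0, 80.0 and 78.8 CPM in shPRRC2B (log2 change 8.87, SE 0.17, and 9.49 without shCtrl replicate 2). FLRT2 (8.36), the prostaglandin reductase PTGR1 (6.61), SHROOM2 (6.55) and the pseudogene TSSC2 (7.30) rose, and so did RIOX1 (6.81). FZD10 and its antisense neighbour FZD10-AS1 (6.42, and 7.22 without shCtrl replicate 1) both rose.

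Other genes fell far in shPRRC2B, some to near silence. ARMCX2, of chromosome X, measured 30.1, 31.2 and 37.9 CPM in shCtrl and 0.0645, 0.196 and 0 CPM in shPRRC2B (log2 change -8.32, SE 0.28; edgeR adjusted p = 5.3e-13), and -9.71 without shPRRC2B replicate 2. LCP1, an actin-bundling protein, measured 173, 160 and 164 CPM against 2.07, 1.22 and 2.37 CPM (-6.49, SE 0.12). ZNF331 (-7.04) and PPP1R14A (-6.95), both of chromosome 19, BEX1 (-6.06), the lipid transfer protein PLTP (-4.73), RPRM (-4.12), VILL (-4.02), CRABP2 (-3.45), which carries retinoic acid, and UNCX (-3.42) fell. RPL22L1, a paralog of the ribosomal protein RPL22, measured 134, 135 and 134 CPM against 8.78, 12.7 and 9.56 CPM (-3.68, SE 0.10). RPSAP15 (-5.02) is a processed pseudogene of RPSA, so its pairs could in part come from its parent. The lines did not overlap for any gene given with a value in this paragraph or the preceding one. That was a condition for naming these genes, not a result.

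**Figure D5:**
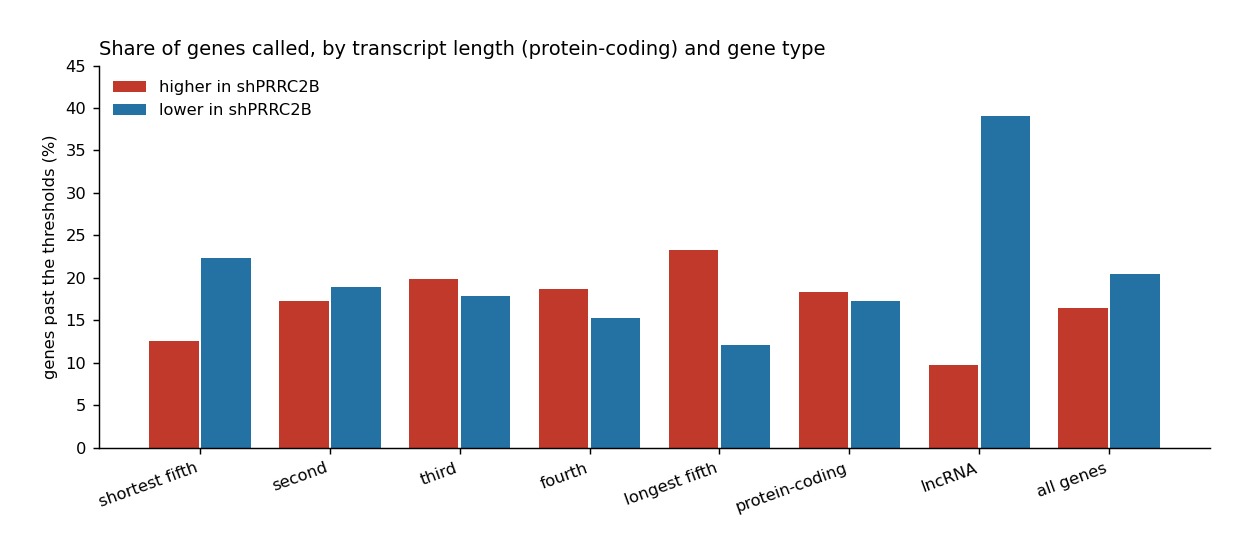
Share of genes past the thresholds (%, bars from 0), higher in red and lower in blue, for protein-coding genes in 5 groups by transcript length, for protein-coding and lncRNA genes, and for all genes tested. From the shortest to the longest group the higher share goes from 12.6% to 23.3% and the lower share from 22.3% to 12.1%, and lncRNAs have the highest lower share, 39.1%.

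Transcript length and gene type went with the direction of change. Protein-coding genes were split into 5 groups of like size by transcript length. In the shortest group (207 to 1890 bases) 12.6% were higher and 22.3% lower, and in the longest group (5940 bases and more) 23.3% were higher and 12.1% lower. Ribosomal proteins belong to the short genes. After removal of the length trend, 2905 genes were higher and 3432 lower. Of 1084 lncRNAs 106 (9.78%) rose and 424 (39.1%) fell, with a median log2 change of -0.47, against 18.3% and 17.3% of the protein-coding genes. Of 9 noncoding RNAs known to stay in the nucleus, 4 fell and none rose. NEAT1, the scaffold of paraspeckles, measured 391, 321 and 321 CPM in shCtrl and 140, 124 and 151 CPM in shPRRC2B (-1.32, SE 0.08; edgeR adjusted p = 1.1e-09), and MALAT1, of nuclear speckles, fell by 1.09 (SE 0.10). The splicing regulators, SR proteins and hnRNPs, had 6 higher, 3 without shCtrl replicate 2, and 6 lower of 34 (3 and 3 relative to neighbours), with SRSF3 at 0.97 and SRSF5 at -0.83.

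The zinc finger genes, many of which encode repressors with a KRAB domain, gave 175 lower (39.1%) and 55 higher (12.3%) of 447, with a median of -0.32. The count differed by position. Of the 117 that lie on chromosome 19 from 40 Mb on, 95 were lower and 3 higher (median -1.19). Of the 86 elsewhere on chromosome 19, 25 were lower and 16 higher (median -0.11), and of the 244 on other chromosomes 55 were lower and 36 higher (median -0.08). Relative to neighbours, which in these clusters are zinc finger genes too, 82 were lower and 33 higher.

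The mRNAs that the study found bound to PRRC2B by PAR-CLIP, a crosslinking method that maps binding sites, were not displaced as a group in total RNA. Of 223 listed, 212 had enough counts, 36 (17%) rose and 39 (18.4%) fell, beside 16.4% and 20.5% of all genes, with a median log2 change of 0.01. Relative to neighbours 19 rose and 30 fell. The largest changes included SYN3 (1.94, SE 0.18), FMC1 (-1.86, SE 0.37) and LIMCH1 (1.68, SE 0.09). In polysome RNA, 21 of 204 were higher and 71 lower.

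The polysome libraries of the same lines were fitted on their own and are set beside the total RNA without a test of the difference. Of 15268 genes tested there, 2552 (16.7%) were higher and 2842 (18.6%) lower in shPRRC2B. Of the genes that rose in total RNA 2456 were tested in polysome RNA, where 914 (37.2%) rose and 160 (6.51%) fell. Of those that fell 2889 were tested, where 1046 (36.2%) fell and 127 (4.4%) rose. Of the 12 genes named for the largest falls in total RNA, some fell further in polysome RNA and some less far. The polysome log2 change was -10.5 for ARMCX2, -8.97 for ZNF331, -8.17 for BEX1 and -7.39 for PPP1R14A. RPL22L1 (-3.93) and CRABP2 (-3.61) also fell slightly further there than in total RNA. The falls of LCP1 (-4.95), RPSAP15 (-4.79), PLTP (-3.57), RPRM (-2.19), VILL (-2.03) and UNCX (-1.78) were smaller in polysome RNA. ATF4 targets gave 13 lower and 1 higher of 28 in polysome RNA, and ribosomal proteins 16 lower and 6 higher of 79. RPL39, with a polysome log2 change of -0.16, and RPL37A, with 0.07, were not called there, whereas RPL24 (-1.27) was. HIF targets gave 3 lower and 1 higher of 17, with VEGFA at -0.20. Host genes of snoRNAs gave 8 higher and 1 lower of 22, and nuclear oxidative phosphorylation subunits 17 higher and 4 lower of 77. Ribosome biogenesis factors gave 3 higher and 8 lower of 33, heat shock factor 1 targets 3 and 3 of 20, and interferon-stimulated genes 6 and 5 of 16. CRKL and CCND2, near 0 in total RNA, had polysome log2 changes of -1.67 and -1.77, and PRRC2B, PRRC2A and PRRC2C had -1.34, -1.77 and -3.03. Of the study's other examples, SERBP1 (-1.47), BPTF (-1.33), PPP2R1A (-1.27), ATAD5 (-1.23), ACTB (-0.98), HSPA4 (-0.54) and PTBP1 (-0.50) were called lower in polysome RNA. YWHAZ (-0.55), CTC1 (-0.42), GAPDH (-0.40) and GATA4 (0.50) were not called there.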

How the data were processed

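The authors deposited whole-number read-pair counts per gene name, not normalized. Per the labels, the submitters' processing notes and the study's methods, poly(A) RNA was sequenced in pairs, demultiplexed with bcl2fastq 2.19.0, trimmed with Trimmomatic 0.36, mapped to GRCh38 with HISAT2 (2.1.0 in the notes, another version in the methods) and counted with featureCounts of Subread 2.0.1 on GENCODE 38 gene names. Pairs that map to several places or genes were not counted, and no strand setting is stated. The table holds 59385 names, of which 34818 had a count in total RNA, and 0 columns that belong to no library. Library totals ranged from 9855734 to 20837542.

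Groups came from the sample titles, which number biological replicates. The 6 total RNA libraries were fitted in R 4.3.3 with edgeR 4.0.16 (TMM, filterByExpr with a minimum count of 10, quasi-likelihood test, Benjamini-Hochberg adjustment over 17520 genes, no block). Calls needed both an adjusted p below 0.05 and an absolute log2 change over 0.5. The study set these limits on changes in translation efficiency, the ratio of polysome to total RNA, and not on total RNA. SE is the log2 change over the square root of F. Of the genes tested, 15327 (87.5%) matched GENCODE 44 by name for position, type and length. Promoter sequences are RefSeq's (GRCh38.p14). On simulated data with the same libraries, 82.5% of genes changed by 1 and 97.9% of genes changed by 2 on the log2 scale were recovered, with 8 false calls among 17149 genes. Only 97 tested genes of each size were changed there, far fewer than were called here, and no stretch of a chromosome was shifted. The simulation therefore gives no error rate for these data.

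Named genes were the PRRC2 family, the study's examples, the 12 largest rises and falls among called genes of at least 5 CPM whose lines did not overlap, up to 4 called members with the largest change per list, and members that define a list; further list members are named to describe their list and were chosen after their values were seen. Lists and members were chosen with earlier results of these data known. Alternatives were DESeq2 1.42.0, RLE and total-count scaling, 2 other count filters, a fit of all 12 libraries, the replicate number as a block, removal of the length trend with and without that block, no minimum change, leaving out each library, and changes relative to neighbours, the last added after seeing the data. Some genes that the rule would name are not reported here.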

Additional observations from a re-analysis of the deposited data

How the results depend on the processing

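The counts of all genes, 2865 higher and 3598 lower, were 2747 and 3368 with DESeq2, 2700 and 2565 in the fit of all 12 libraries, 3266 and 3756 with every gene counted at least once, and 2731 to 2914 and 3374 to 3659 with a library left out. The log2 change of PRRC2B stayed between -1.68 and -1.46 under the other tools, scalings, filters, fits and left-out libraries, and was -1.29 relative to neighbours. Among 234 named genes, 208 kept their direction and their side of the thresholds under every setting but the neighbour one, 21 lost the call under at least 1 and 5 gained it.

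The replicate numbers of the lines are shared numbers only. Deviations of same-numbered libraries correlated at -0.00918, 0.0362 and -0.00344, and not every library correlated best with its own number. With the replicate block 2854 genes were higher and 3577 lower, and PRRC2B was at -1.53.

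With no minimum change, 5268 genes were higher. Members higher were then 27 for translation factors, 28 for mitochondrial ribosomal proteins, 17 for heat shock factor 1 targets, 20 for the proteasome, 90 for zinc finger genes and 81 for PRRC2B-bound mRNAs. Members lower were 19 for snoRNA hosts, 36 for oxidative phosphorylation, 21 for mitochondrial ribosomal proteins, 23 for ATF4 targets, 16 for the matrix, 13 for HOX genes and 69 for bound mRNAs.

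Relative to neighbours, 1575 genes were higher and 2092 lower. Members higher were 3 translation factors, 7 ribosome biogenesis factors, 6 each of mitochondrial ribosomal proteins, heat shock factor 1 targets and proteasome subunits, 7 p53 targets, 33 zinc finger genes and 19 bound mRNAs. Members lower were 2 mitochondrial ribosomal proteins, 5 HOX genes and 82 zinc finger genes. SERBP1 reversed, to 0.06, and of the genes not called PPP2R1A went from -0.46 to 0.57, PTBP1 from 0.09 to -0.24 and CCND2 from 0.16 to -0.05.

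With the length trend removed, with or without the replicate block, members lower were 8 for oxidative phosphorylation, 5 for mitochondrial ribosomal proteins and 4 for histones. In the fit of all 12 libraries 1 histone gene was lower and 4 ERK feedback genes were higher. With at least 10 counts in each library 4 ERK feedback genes and 8 potassium channels were higher. The cause of these shifts was not tested, except that fewer or more genes pass by construction where a minimum is changed. EEF1D and CARS1 rest on single libraries.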
